A study of Canis lupus familiaris with 23 samples.

Results

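The matrix metalloproteinases (MMPs) and their tissue inhibitors (TIMPs) described here are 10 dog genes, MMP1, MMP2, MMP3, MMP9, MMP12, MMP13, MMP14, MMP28, TIMP1 and TIMP3, out of 21416 gene entries in the series. They were taken by gene symbol, and each symbol matched 1 entry. They were chosen by their levels in CPM, or counts scaled to a common library total, over all 12 groups of these same libraries, so their levels and changes are given as a description, with no p-value. Whether a gene in this set passed the test used for all genes is stated in the same way, beside the share of all genes that passed.

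MMPs are zinc enzymes that cut proteins of the extracellular matrix and, in many cases, receptors, growth factors and other proteases. Most are secreted in an inactive form whose prodomain must be removed, and TIMPs block the active enzymes by occupying the catalytic site. In skin, keratinocytes at a wound edge are known to make the collagenase MMP1, which loosens their hold on dermal collagen as they migrate, while many MMP and TIMP genes are known to respond to Tgf-beta signalling, in a direction that depends on the gene and the cell.

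RNA was measured by CEL-seq2, which counts transcripts from their 3′ ends, in 23 libraries of 12 groups. Follicle-derived organoids, which are keratinocyte cultures grown from hair follicles, were taken at day 7 of expansion culture with a Tgf-beta inhibitor (2 libraries at passages 3 to 6, called later, and 3 at passages 0 to 1, called early) or without it (2 later and 2 early). Organoids from interfollicular epidermis, all with the inhibitor, gave 1 later and 1 early library. Differentiation cultures of later-passage follicle organoids gave 2 libraries in a differentiation medium lacking Noggin, R-Spondin-1 and Forskolin, 2 in a medium lacking just Noggin and R-Spondin-1, and 2 in full differentiation medium. Noggin blocks BMP signals, R-Spondin-1 strengthens Wnt signals and Forskolin raises cAMP. Dog tissue gave 2 libraries each of hair follicles, interfollicular epidermis and whole skin. The labels used here do not give breed, sex or age of the dogs, whether numbered replicates are separate dogs or cultures, or whether the differentiation media held the inhibitor. In RNA from mixed cells, fewer cells of a type and less RNA per cell cannot be told apart.

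Total counts ran from 84439 in epidermis replicate 2 to 4792577 in the deepest early inhibitor library, so that a gene with 0 counts could stand at up to 23.4 and 0.68 CPM in these libraries (3 counts of the scaled total, counting error only). Summed keratinocyte markers stood at 28090 to 77430 CPM in organoid libraries, against 9994 to 20050 CPM in tissue. Summed fibroblast markers were far lower in follicle organoids, at 50.5 to 514.9 CPM in expansion and 3.42 to 42.4 CPM in the differentiation media, against 4412 to 7522 CPM in follicle tissue. The later interfollicular organoid library stood apart from the other organoids, with 757.5 CPM of fibroblast, 90.9 CPM of immune and 181.8 CPM of smooth muscle markers at a depth of 219881 counts. Replicate 1 of the early inhibitor cultures had a mean chi-square per gene of 81.5 and 74.7 against its group mates. The group mates had 19.6 between them. Replicate pairs of the other groups lay between 5.005 and 22.4, but this measure grows with depth. The differentiation pairs had 19.0 to 21.8 at just 235971 to 689816 counts per library. Pairs of unlike depth therefore cannot be ranked by it. Mitochondrial transcripts took 5.35% of the counts of early inhibitor replicate 1 and 26.9% of those of replicate 2.

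The total counts of the 10 genes over all libraries differed widely. TIMP1 had 33671 and MMP1 18185, MMP2 1637, MMP13 1616, MMP28 406, MMP3 373, MMP14 311, MMP9 133, MMP12 53 and TIMP3 31. All 10 passed the filter on low counts. The 6 differentiation libraries do not list MMP12, so it has no value there. Another 13 MMP and TIMP entries are listed, and of these only MMP7 and MMP17 passed the filter. MMP13, MMP12, MMP3 and MMP1 are consecutive coding genes in the reference gene table (assembly UU_Cfam_GSD_1.0), and the other 6 genes lie on chromosomes other than theirs.

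The comparison of follicle organoids with and without the Tgf-beta inhibitor asks which genes differ when that pathway is blocked in culture. MMP1, the interstitial collagenase, TIMP1, a broad MMP inhibitor, and MMP3, a stromelysin that can activate other MMP proenzymes, were all higher with the inhibitor. MMP13, another collagenase, and MMP9, a gelatinase, averaged lower with it without passing the test. Of the 10 genes 3 passed the test, all higher, where 2.6% of 9856 genes tested passed either way and 1.83% were called higher. The libraries of both sides did not overlap for these 3 genes, as for 8.49% of all genes tested.

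TIMP1 stood at 3455 and 2040 CPM in the later and at 1568, 2375 and 3632 CPM in the early inhibitor libraries, against 107.1 and 207.5 CPM in the later and 111.4 and 261.8 CPM in the early libraries without it. Every library with the inhibitor was thus above every library without it, by a clear gap. The log2 change was 3.94 ± 0.38 (SE). It lay between 3.70 and 4.31 under the 14 alternative settings, and TIMP1 passed in all of them.

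MMP1 stood at 2875 and 2048 CPM in the later and at 2362, 921 and 733 CPM in the early inhibitor libraries, against 254.7 and 566.3 CPM later and 38.0 and 104.6 CPM early without it. The lowest inhibitor library was above the highest library without it, although the 2 values lie close. The log2 change was 3.39 ± 0.53 (SE), and MMP1 passed in all 14 settings. MMP1 without the inhibitor was higher in both later libraries than in both early ones, while with the inhibitor the passages overlapped.

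MMP3 stood at 54.9 and 11.1 CPM in the later and 90.7, 27.5 and 13.1 CPM in the early inhibitor libraries, against 0.574 and 2.49 CPM later and 2.72 and 1.31 CPM early without it. The log2 change was 4.52 ± 0.70 (SE), on 329 counts with and 13 counts without the inhibitor, and was 3.72 without replicate 1 of the later inhibitor cultures. MMP3 varied widely among the libraries with the inhibitor, and the groups still did not overlap. MMP12, the macrophage elastase, lies next to MMP3 and was sparse. It stood at 19.0 and 7.06 CPM in the later and 1.32, 1.72 and 0.906 CPM in the early inhibitor libraries, against 0.287 and 1.66 CPM later and 1.36 and 0 CPM early without it, a log2 change of 2.63 ± 0.85 (SE) that did not pass. Of its 53 counts, 33 were in the 2 later inhibitor libraries. The macrophage genes CD163 and CSF1R were at 0 in both of those libraries, and their summed immune markers stood at 2.02 to 7.32 CPM. The cell source of MMP12 was not tested.

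MMP13 ran the other way. It stood at 9.51 and 37.3 CPM in the later and 2.65, 22.4 and 4.31 CPM in the early inhibitor libraries, against 176.9 and 82.0 CPM later and 141.3 and 14.0 CPM early without it. Replicate 2 of the early cultures without inhibitor fell inside the inhibitor range, and the others were above it. The log2 change of -2.73 ± 0.79 (SE) did not pass. It passed without low-count filtering, without that library and without replicate 2 of the early inhibitor cultures, and kept its sign in all 14 settings (-3.39 to -1.54, the smallest without replicate 1 of the early cultures without inhibitor). MMP9 reached 0.732 and 1.009 CPM in the later and 0, 2.29 and 0.906 CPM in the early inhibitor libraries, against 4.02 and 21.1 CPM later and 0 and 6.13 CPM early without it. The groups overlapped through 1 early library without counts, and the log2 change of -2.76 ± 0.83 (SE) did not pass. It was -0.15 without replicate 2 of the early and -1.95 without replicate 2 of the later cultures without inhibitor.

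Counts of MMP13 per count of MMP1 within a library give a scale that does not depend on depth. The ratio was 0.0033 and 0.018 in the later and 0.0011, 0.024 and 0.0059 in the early inhibitor libraries, against 0.694 and 0.145 later and 3.71 and 0.134 early without it. All 5 values with the inhibitor were below all 4 without it. MMP1, the lower term of the ratio, had no overlap between these groups by itself, while MMP13 overlapped. The split of the ratio is therefore no separate evidence on MMP13. MMP1 per TIMP1 did not separate these groups, at 0.832 and 1.00 later and 1.51, 0.388 and 0.202 early with the inhibitor, against 2.38 and 2.73 later and 0.341 and 0.400 early without it.

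**Figure D1:**
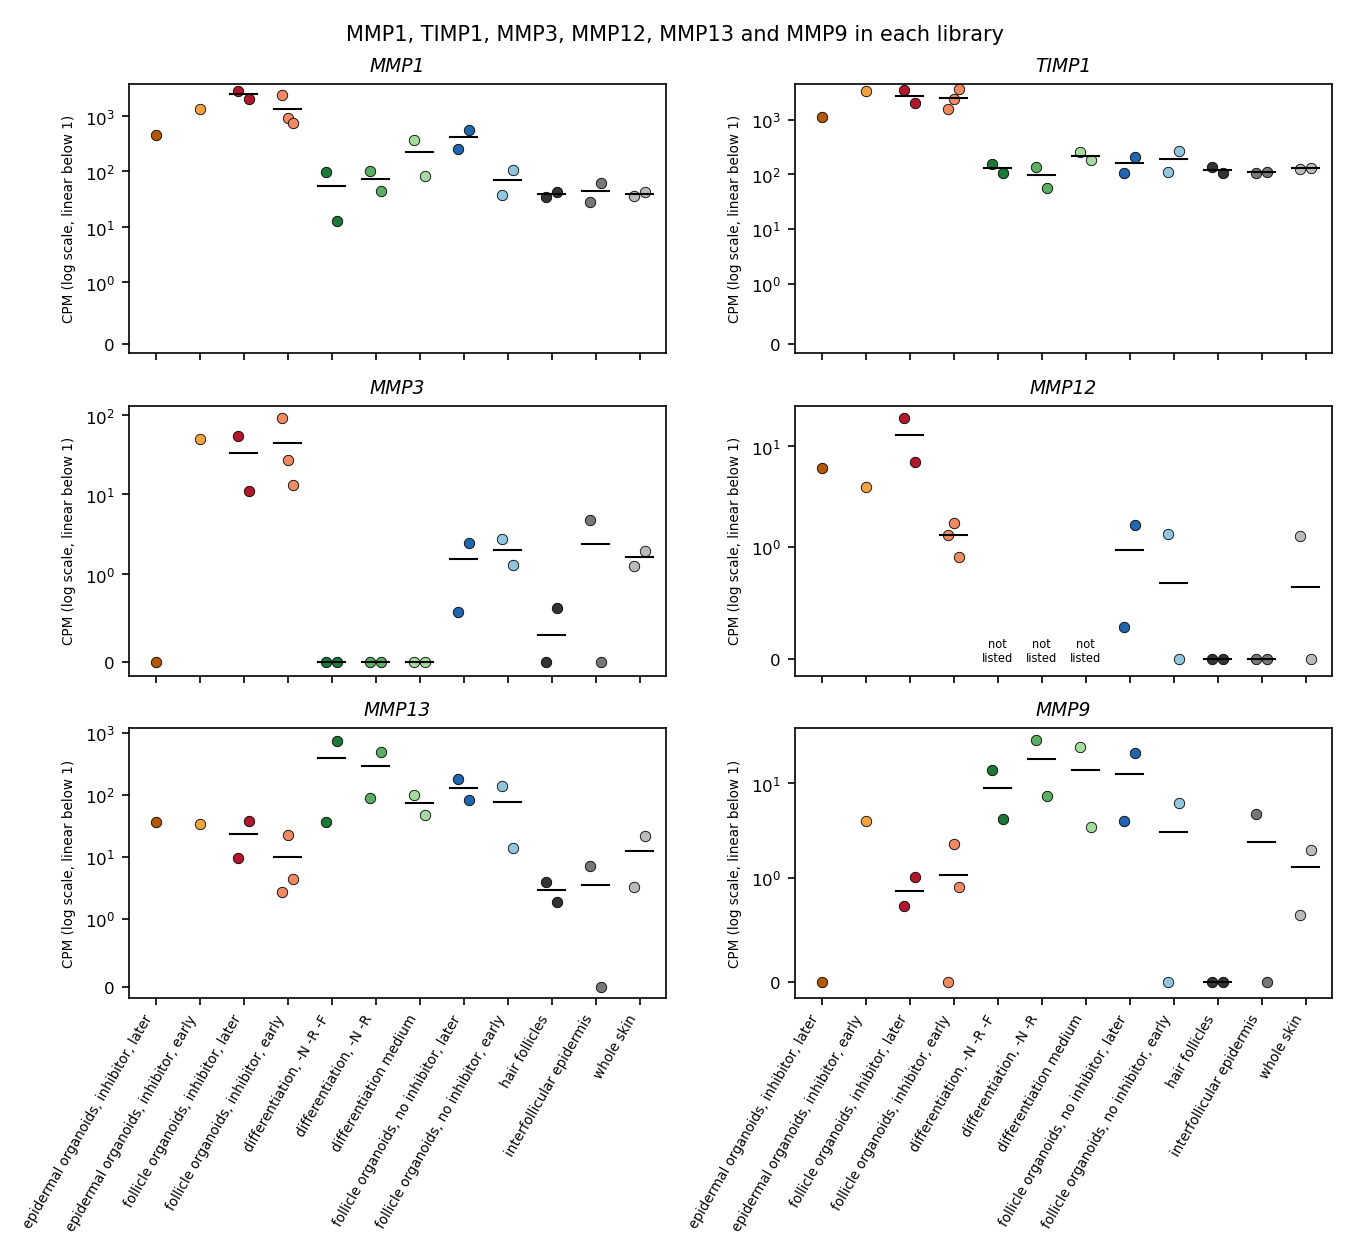
CPM of 6 genes in each library (points) with the group mean (line, where a group has more than 1 library), on a log axis that is linear below 1; -N, -R and -F mark media lacking Noggin, R-Spondin-1 and Forskolin. TIMP1 and MMP1 stand at 448.4 CPM or more in every library labelled with the inhibitor. MMP13 peaks in 2 differentiation libraries at 496.6 and 750.2 CPM. MMP1 also reaches 566.3 CPM in 1 later follicle organoid library without inhibitor.

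The remaining genes moved less with the inhibitor. MMP2, the gelatinase that MMP14 activates, stood at 24.7 to 121.2 CPM with and 20.4 to 63.0 CPM without it. MMP14, which sits in the membrane, stood at 8.07 to 19.8 CPM with and 5.80 to 14.4 CPM without it. MMP28, known as epilysin, stood at 8.03 to 34.3 CPM with and 6.79 to 24.0 CPM without it, and TIMP3, a TIMP that binds to the matrix, had 4 counts with and 3 without. These ranges overlapped for all 4 genes.

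Other genes of the proteolytic network were read against lists chosen with earlier results of these data known. In the plasminogen list, SERPINB2, an inhibitor of the urokinase activator, rose with the inhibitor by 3.27 ± 0.54 on the log2 scale (644.4 against 91.6 CPM, edgeR quasi-likelihood adjusted p = 0.00152). It was the only one of 8 tested genes of this list to pass, with a list median of 1.09 against -0.01 for all genes. Among MMP activators and partners 2 of 20 rose and 0 fell: TFPI2, a serine protease inhibitor, by 2.22 ± 0.33 (492.5 against 111.0 CPM, edgeR adjusted p = 0.000534) and CST6, a cystatin, by 2.45 ± 0.63 (737.4 against 129.0 CPM, edgeR adjusted p = 0.0392). CST6 lost its call in 9 of 14 settings, where its log2 change lay between 1.99 and 2.74.

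Of the AP-1, ETS and RUNX transcription factors that are known to act on MMP promoters, 1 of 15 rose. This was ETS1, higher by 2.09 ± 0.25 on the log2 scale (94.3 against 21.9 CPM, edgeR adjusted p = 8.2e-05), while FOSL1, an AP-1 subunit, stood at 87.2 CPM with and 64.6 CPM without the inhibitor (adjusted p = 0.54). ADAM and ADAMTS proteases rose in 2 of 12 cases, and ADAMTS1, which cuts proteoglycans, was higher by 1.94 ± 0.46 (31.7 against 8.64 CPM, edgeR adjusted p = 0.0246, lost in 8 of 14 settings with values from 1.71 to 2.11). The other gene was ADAM33 (9.46 against 0.739 CPM), which is below the level set for naming and was named after its values were seen. None of 13 other matrix-degrading proteases and neither MMP7 nor MMP17 passed.

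Of the marker lists, 1 of 8 fibroblast markers was called lower with the inhibitor, and no marker of the other lists was called. Summed fibroblast markers stood at 50.5 to 56.5 CPM in the later and 76.8 to 138.8 CPM in the early inhibitor libraries, against 53.0 to 64.6 CPM later and 242.9 to 514.9 CPM early without it, and PDGFRA was at 0 in 3 of these 4 groups. Summed adipocyte markers stood at 148.5 to 341.9 CPM later and 72.5 to 349.6 CPM early with the inhibitor, against 126.1 to 647.5 CPM later and 383.9 to 508.1 CPM early without it. Melanocyte markers reached 251.3 CPM in 1 early library without the inhibitor, against 10.1 CPM or less with it. The part of these cells in the differences was not tested.

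Later passages were set against early ones over the same 9 libraries. MMP28 alone had no overlap, with 32.9 and 34.3 CPM in later and 13.9, 8.03 and 9.74 CPM in early libraries with the inhibitor, and 21.3 and 24.0 CPM in later and 6.79 and 10.1 CPM in early libraries without it. Its log2 change was 1.51 ± 0.38 (SE), and lay between 1.42 and 1.70 over 14 settings. None of the 10 genes passed, where 0.355% of all genes tested did and 3.33% had no overlap. MMP28 did pass without low-count filtering and with DESeq2. MMP1 had a log2 change of 1.68 ± 0.47 and MMP12 of 2.21 ± 0.88 (SE), both with overlap between the passages, and TIMP1 one of -0.07 ± 0.33. In the same comparison 3 of 8 fibroblast markers were called lower in later passages, and no marker of the other lists was called. The part of fibroblasts in these values was not tested.

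The difference of the inhibitor effect, later minus early passage, was estimated directly. For MMP1 it was -1.61 ± 0.95 on the log2 scale (SE), with group means of 2462 CPM with and 410.5 CPM without the inhibitor later, and of 1339 CPM with and 71.3 CPM without it early. TIMP1 had a difference of 0.38 ± 0.66 and MMP13 of 0.46 ± 1.53. None of the 10 passed, and 0% of all genes did under edgeR's quasi-likelihood test (265 genes had an unadjusted p under 0.05 and DESeq2 called 1).

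**Figure D2:**
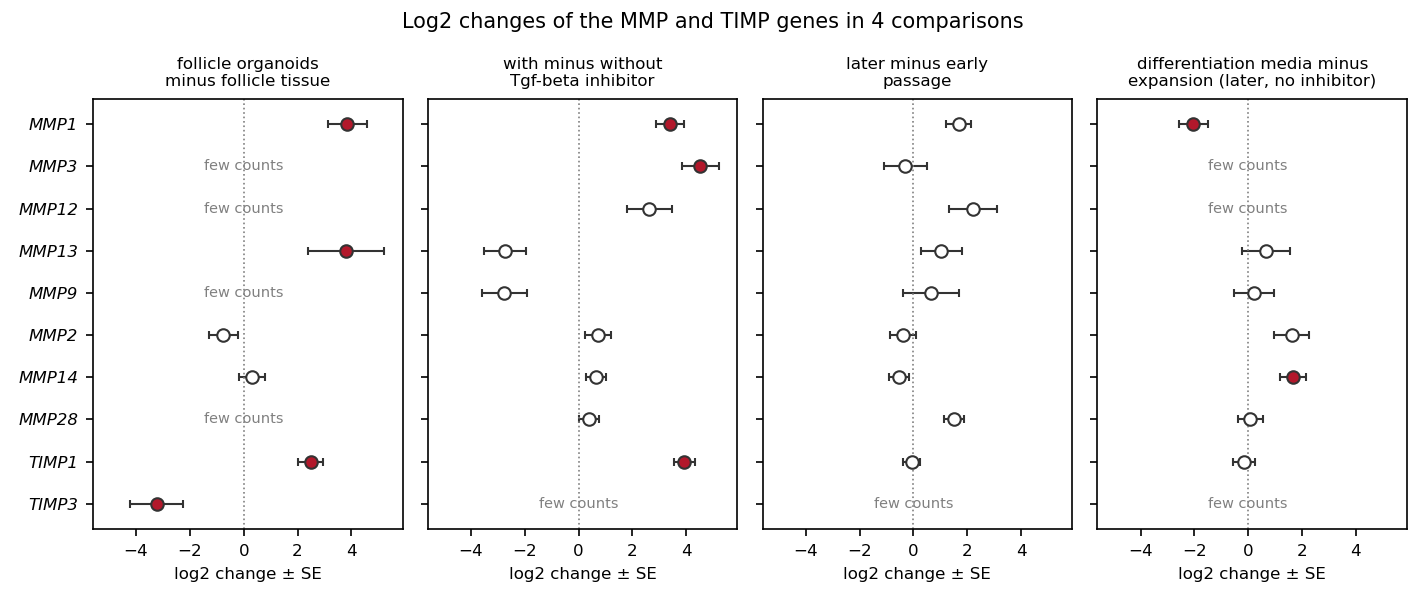
Log2 change (point) with its SE (bar) for each gene in 4 comparisons, each written as the first group minus the second; filled points passed the edgeR test over all genes, and "few counts" marks genes with 3 counts or fewer on a side or no listing. TIMP1, MMP1 and MMP3 sit between 3.39 and 4.52 in the inhibitor panel, where MMP13 and MMP9 sit below -2.

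Follicle organoids in expansion were compared with hair follicle tissue, the source of the cultures, with all 4 culture groups weighted equally. MMP1, TIMP1, MMP13 and MMP28 were called higher and TIMP3 lower, 5 of 10 genes, where 27.9% of genes tested were called, 9.2% higher and 18.7% lower. MMP28 and TIMP3 had no overlap, as 34.6% of all genes did. MMP28 was detected in every organoid library, at 6.79 to 34.3 CPM (median 13.9), against 0 and 1.24 CPM in the follicle libraries. With only 2 follicle counts, the ratio of the pooled levels was 19.9 with a counting interval of 5.46 to 164.8.

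MMP1 stood at 38.0 to 2875 CPM in organoids (median 733) against 34.4 and 42.6 CPM in follicles, a log2 change of 3.85 ± 0.73 (SE). TIMP1 stood at 107.1 to 3632 CPM (median 1568) against 137.7 and 103.7 CPM, a log2 change of 2.48 ± 0.46. In both cases libraries without the inhibitor reached into the follicle range: 1 of 4 for MMP1 and 2 of 4 for TIMP1. MMP13 stood at 2.65 to 176.9 CPM (median 22.4) against 3.97 and 1.85 CPM. Its change of 3.81 ± 1.41 lost its call in 8 of 16 settings, among them the other 2 scalings and the omission of either follicle library (3.21 to 4.28 in these 8), and 1 inhibitor library lay within the follicle range.

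TIMP3 was at 0 to 1.15 CPM in organoids (7 counts in 9 libraries) against 3.97 and 2.47 CPM in follicles (7 counts), with no overlap. The log2 change of -3.23 ± 0.98 was no longer called without follicle replicate 1 (-2.94) or replicate 2 (-3.59). MMP9 and MMP12 had no counts in either follicle library. Their 89 and 48 counts, pooled over the 9 organoid libraries, came to a level at least 3.72-fold and 2.01-fold higher than 3 counts over both follicle libraries would give. Of these counts, 79 of MMP9 were from libraries without the inhibitor and 42 of MMP12 from libraries with it. MMP3 had 1 follicle count and averaged 20.1 CPM in organoids, a pooled ratio of 42.9 with a counting interval of 7.64 to 1698. Of its 342 organoid counts, 329 were from inhibitor libraries. The libraries without inhibitor stood at 0.574 to 2.72 CPM, organoids and follicles overlapped, and MMP3 was not called. MMP2 averaged 48.7 CPM in organoids against 80.5 CPM in follicles and MMP14 11.98 against 9.66 CPM, both with overlap.

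Around these genes, 5 of 8 plasminogen-list genes rose in organoids and 0 fell (median log2 change 1.77 against 0.02 for all genes). SERPINB6, an intracellular serine protease inhibitor, was higher by 2.52 ± 0.52 (43.9 against 6.66 CPM, edgeR adjusted p = 0.00089), and S100A10, which binds plasminogen at the cell surface with ANXA2, by 1.69 ± 0.44 (20140 against 5857 CPM, adjusted p = 0.00605). S100A10 was not called without follicle replicate 1 (1.44). Of 12 ADAM and ADAMTS genes 7 fell and 1 rose, with a median of -2.18. The aggrecanase ADAMTS5 fell by 5.13 ± 0.43 on the log2 scale (1.27 against 44.9 CPM, edgeR adjusted p = 7.51e-09). Other matrix-degrading proteases fell in 6 of 13 cases and rose in 2, and CTSK, a cathepsin that cuts collagen, fell by 3.59 ± 0.36 (30.2 against 315.3 CPM, adjusted p = 8.87e-08).

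MMP activators and partners fell in 5 of 20 cases and rose in 1 (median -0.27), which was TFPI2 at 2.55 ± 0.44 (301.8 against 38.2 CPM, edgeR adjusted p = 0.000117). Of the 15 regulators 6 rose and 1 fell (median 0.87), and FOSL1 was higher by 3.37 ± 0.50 (75.9 against 7.41 CPM, adjusted p = 2.66e-05). MMP7, matrilysin, fell by 3.34 ± 0.86 on the log2 scale (2.26 against 8.47 CPM, edgeR adjusted p = 0.00614), and was not called without follicle replicate 2 (-2.14). In later organoids without inhibitor MMP7 stood at 6.32 and 8.70 CPM, inside the follicle range of 3.97 to 12.97 CPM. The later inhibitor libraries had 0 counts of it. All 8 fibroblast markers were called lower in organoids in the same comparison. Among the markers tested, 3 of 3 endothelial, 4 of 4 immune and 4 of 4 smooth muscle markers were also called lower. The same held for 3 of 3 melanocyte, 4 of 5 adipocyte and 2 of 2 hair shaft markers, while 4 of 8 keratinocyte markers were called higher. The part of these cell types in the changes was not tested.

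Interfollicular organoids, with 1 library per passage, were set against interfollicular epidermis. TIMP1 stood at 1103 CPM later and 3303 CPM early, against 106.5 and 109.0 CPM in epidermis, a log2 change of 4.15 ± 0.58 (SE). It was 3.36 without the early and 4.94 without the later organoid library, and 3.53 by library totals. MMP1 stood at 448.4 CPM later and 1333 CPM early, against 28.4 and 62.3 CPM, a change of 4.25 ± 0.88 that was not called without epidermis replicate 1 (3.62) and was 3.46 without the early and 5.03 without the later organoid library. Both organoid libraries were above both tissue libraries for each gene (46.7% of all genes had no overlap in this comparison), and these were the 2 of 10 genes that passed, where 11.5% of all genes did and 7.11% were called higher. The SE assumes that the single libraries vary like the groups with replicates. In this comparison 3 of 8 fibroblast, 2 of 4 immune and 3 of 4 smooth muscle markers tested were called lower in organoids, and their part in the changes was not tested.

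MMP13 stood at 36.4 CPM later and 33.6 CPM early against 7.10 and 0 CPM in epidermis (3 counts), a pooled ratio of 6.29 with a counting interval of 1.901 to 32.7. MMP3 was at 49.4 CPM in the early organoid library and had 0 counts in the later one, which at its depth allows up to 18.2 CPM, against 4.73 and 0 CPM in epidermis. The lists again held called genes: SERPINE2, a protease inhibitor known as nexin, rose by 4.31 ± 0.68 (355.9 against 11.8 CPM, edgeR adjusted p = 0.000299), and FOSL1 had 58 counts in organoids and 0 in epidermis, a pooled level at least 15.9-fold higher than 3 counts there would give. FOSL1 was not called without epidermis replicate 1. In all, 2 of 8 plasminogen, 3 of 20 activator and 2 of 15 regulator genes rose, and 1 of 12 ADAM, 1 of 13 other protease and 1 of 20 activator genes fell. Over all 9856 genes tested, 701 were called higher and 429 lower in this comparison.

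Interfollicular organoids did not differ beyond the test from follicle organoids with the inhibitor in any of the 10 genes, where 6.5% of all genes passed. MMP1 averaged 890.5 against 1900 CPM (log2 change -1.23 ± 0.63) and TIMP1 2203 against 2636 CPM (-0.47 ± 0.42). MMP14 alone had no overlap, as 22.6% of all genes, at 0 and 7.90 CPM in interfollicular against 8.07 to 19.8 CPM in follicle organoids, on 4 counts against 140. The 0 is from the later interfollicular library, whose depth allows up to 18.2 CPM, so the lack of overlap is not firm. FURIN, a protease that activates MMP14 and other proenzymes, rose by 2.75 ± 0.33 (316.3 against 31.1 CPM, edgeR adjusted p = 5.79e-06) and the endocytic receptor LRP1 by 3.53 ± 0.68 (99.9 against 3.92 CPM, adjusted p = 0.00166), while SPINT2, a serine protease inhibitor, fell by 1.10 ± 0.29 (260.0 against 487.1 CPM, adjusted p = 0.0208). Without the later interfollicular library, which has the high fibroblast and smooth muscle sums, none of the 3 was called: FURIN was at 1.31 and LRP1 at 1.55. SPINT2 lost its call in 4 of 12 settings (-1.21 to -0.29), that library and replicate 2 of the later follicle organoids among them. No gene of the other lists passed in this comparison.

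**Figure D3:**
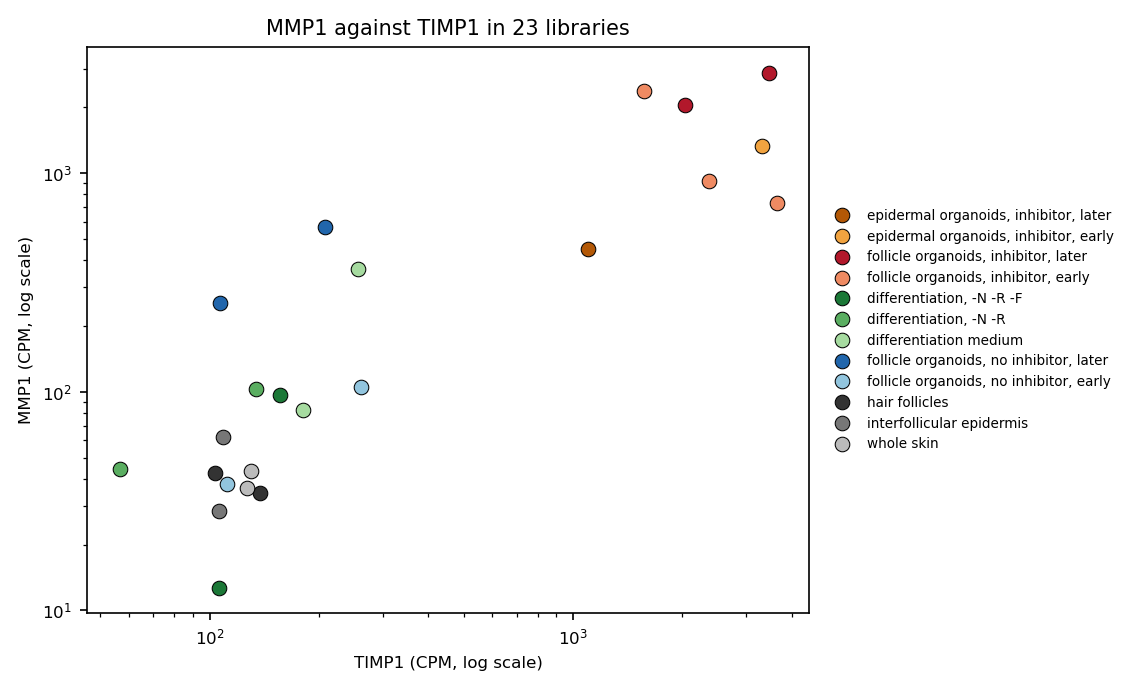
MMP1 against TIMP1 in 23 libraries, both in CPM on log axes, coloured by group. The 7 libraries labelled with the inhibitor form a set at 448.4 CPM or more of MMP1 and 1103 CPM or more of TIMP1. No other library exceeds 261.8 CPM of TIMP1. MMP1 alone does not separate them, as 1 later follicle organoid library without inhibitor reaches 566.3 CPM.

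The 3 differentiation media together were compared with later follicle organoids in expansion without inhibitor. MMP1 was called lower and MMP14 and TIMP3 higher, 3 of the 9 genes listed in both, where 14.6% of 9705 genes passed, 4.31% higher and 10.3% lower, and the libraries of 25.5% did not overlap. MMP1 stood at 96.6 and 12.7 CPM without Noggin, R-Spondin-1 and Forskolin, at 102.9 and 44.2 CPM without the first 2 and at 364.8 and 82.1 CPM in the full medium, against 254.7 and 566.3 CPM in expansion. Only the first library in full medium reached the expansion range. The log2 change was -2.04 ± 0.54 (SE), and it was not called without expansion replicate 2 (-1.36). It was -2.77 without replicate 1 of the medium lacking all 3 factors and -3.33 with the later inhibitor cultures added to the expansion side.

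MMP14 stood at 18.4 and 21.2 CPM, 14.4 and 27.0 CPM, and 13.2 and 34.2 CPM in the same order of media, against 6.89 and 5.80 CPM in expansion. All 6 differentiation libraries were above both expansion libraries. The log2 change was 1.67 ± 0.49 (SE), on 48 counts against 38, and the call was lost in 4 of 14 settings (1.43 to 1.80), the omissions of either expansion library and of replicate 2 of the full medium and of that without Noggin and R-Spondin-1. TIMP3 stood at 4.599 and 25.4 CPM, 2.39 and 4.92 CPM, and 3.29 and 0 CPM, against 0.287 and 0.414 CPM in expansion. These were 13 counts against 2, a pooled ratio of 16.0 with a counting interval of 3.62 to 146.0, and the call was lost in 6 of 14 settings: with the replicate number as a block, and without either expansion library, replicate 1 of the full medium or replicate 2 of either reduced medium.

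MMP13 had its highest values of the series in differentiation libraries, at 36.8 and 750.2 CPM, 88.5 and 496.6 CPM, and 98.6 and 47.9 CPM, against 176.9 and 82.0 CPM in expansion. The high values belong to replicate 2 of both reduced media, while the other 4 libraries overlapped expansion or fell below it. In these 2 libraries MMP13 reached 59.0 and 11.2 counts per count of MMP1, against 0.694 and 0.145 in expansion. These 2 ratios rest on just 3 and 18 counts of MMP1, so their size is uncertain. The other 4 differentiation libraries stood at 0.27 to 0.86. MMP2 stood at 27.6 and 55.1 CPM, 45.5 and 248.3 CPM, and 97.0 and 205.3 CPM, against 27.6 and 34.4 CPM in expansion, with a log2 change of 1.62 ± 0.65 that did not pass. MMP2 is known as a fibroblast gene, and the summed fibroblast markers of the media were 3.42 to 42.4 CPM, against 53.0 to 64.6 CPM in expansion. The part of fibroblasts in the MMP2 values was not tested.

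MMP9 stood at 13.8 and 4.24 CPM, 28.7 and 7.38 CPM, and 24.7 and 3.42 CPM, against 4.02 and 21.1 CPM in expansion, and the groups overlapped. CD163, CSF1R and ITGAM, markers of macrophages and other myeloid cells, were at 0 in all 6 differentiation libraries, as were the other immune markers that these libraries list. The cell source of MMP9 was not tested. MMP28 stood at 0 to 39.4 CPM against 21.3 and 24.0 CPM, and TIMP1 at 56.5 to 256.4 CPM against 107.1 and 207.5 CPM. MMP3 had no counts in any differentiation library and 8 in expansion (1.53 CPM on average), and did not pass. The pooled expansion level was just 1.08-fold above that of 3 counts over the differentiation libraries, so the difference is at the edge of detection. With the later inhibitor cultures added to the expansion side, the log2 change was -6.07 and was called.

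Among the lists, SPINT2 fell in the differentiation media by 1.86 ± 0.24 on the log2 scale (125.3 against 450.9 CPM, edgeR adjusted p = 4.02e-05), and it was the only activator or partner to fall. THBS1, thrombospondin, rose by 2.72 ± 0.76 (131.3 against 16.9 CPM, adjusted p = 0.0207), CSTB, a cystatin, by 1.55 ± 0.45 (1659 against 563.7 CPM, adjusted p = 0.0268), and KLK5, a kallikrein of the shedding epidermis, had 82 counts against 2, a ratio of 100.9 with a counting interval of 27.1 to 847. Without either expansion library in turn, THBS1 (2.53 and 2.91) and CSTB (1.36 and 1.76) were not called, and KLK5 was not called in 5 of 14 settings, each without 1 library (either expansion library, or replicate 2 of any medium). Of the 20 tested genes of this list 3 rose and 1 fell (median 0.57 against -0.16 for all genes).

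The AP-1 subunit FOS fell by 5.41 ± 0.88 on the log2 scale (3.58 against 143.9 CPM, edgeR adjusted p = 0.000355), and NFKB1 by 2.04 ± 0.36 (12.1 against 46.3 CPM, adjusted p = 0.00078). They were the 2 of 15 regulators that fell, and 0 rose. Without expansion replicate 1, FOS was not called (-2.90). In the plasminogen list ANXA2 fell by 2.63 ± 0.52 (7.41 against 41.9 CPM, edgeR adjusted p = 0.00186) and SERPINB6 rose by 1.34 ± 0.43 (80.9 against 31.6 CPM, adjusted p = 0.0399), a call lost in 5 of 14 settings (0.79 to 1.32), expansion replicate 1, full-medium replicate 1 and replicate 2 of both reduced media being left out in 4 of them. Of the other proteases CTSV, a cathepsin of epithelia, fell by 1.69 ± 0.38 (51.6 against 164.1 CPM, adjusted p = 0.00556; not called without expansion replicate 1, at -1.63), with 1 rise and 2 falls among 13 tested, and none of 11 ADAM and ADAMTS genes passed.

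The differentiation media were then compared with each other. Removal of Noggin and R-Spondin-1 left 0 of 9 genes called, and 0% of all genes, under edgeR's quasi-likelihood test (256 with an unadjusted p under 0.05, DESeq2 0). TIMP1 alone had no overlap, with 134.0 and 56.5 CPM without them against 256.4 and 181.3 CPM in the full medium (log2 change -1.21 ± 0.52), as 21.5% of all genes did. Further removal of Forskolin also left 0 of 9 genes and 0% of all genes called (329 unadjusted, DESeq2 0). There MMP28 had no overlap, with 22.99 and 0 CPM against 38.3 and 29.5 CPM, but the 0 allows up to 12.7 CPM at the depth of that library. Of all genes 22.8% had no overlap.

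Within each medium the libraries numbered 2 were lower than those numbered 1 in MMP1, MMP9, MMP28 and TIMP1, and higher in MMP2 and MMP14. MMP13 was higher in the libraries numbered 2 of both reduced media and lower in that of the full medium. MMP1 averaged 54.7 CPM without all 3 factors, 73.6 CPM without Noggin and R-Spondin-1 and 223.5 CPM in the full medium, and the ranges of the 3 media overlapped. Among libraries of either number, MMP1 was lowest without all 3 factors and highest in the full medium. The step from removing Forskolin rested on 42 against 43 counts in the libraries numbered 1. In those numbered 2 it rested on 3 against 18 counts. The log2 change of this step was -0.33 ± 0.79 (SE) and did not pass.

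**Figure D4:**
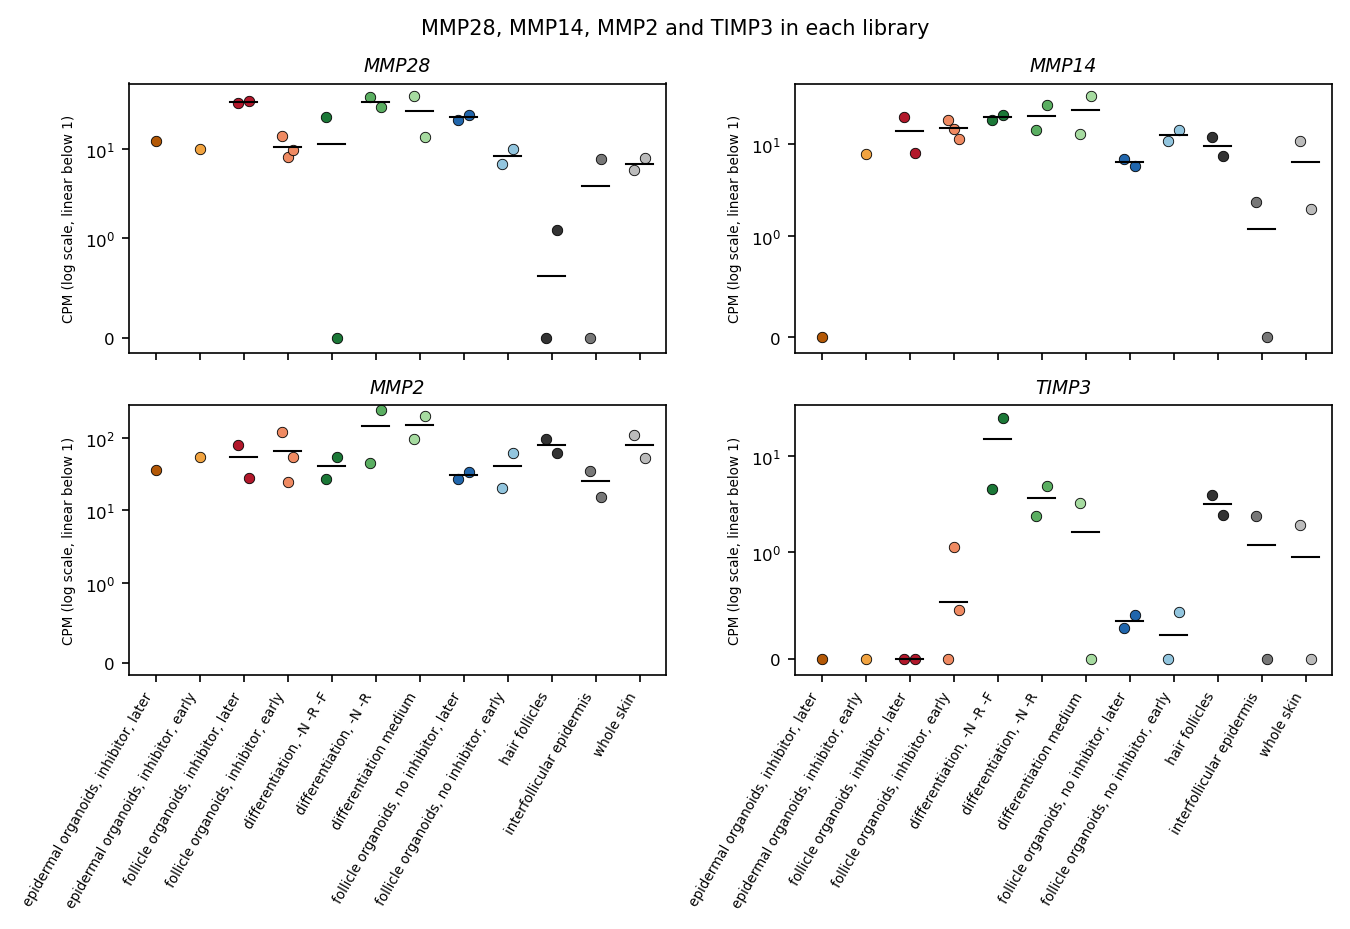
CPM of MMP28, MMP14, MMP2 and TIMP3 in each library (points) with the group mean (line), on a log axis that is linear below 1; -N, -R and -F mark media lacking Noggin, R-Spondin-1 and Forskolin. MMP28 is at 21.3 to 34.3 CPM in later and 6.79 to 13.9 CPM in early follicle organoids, and TIMP3 stays at 1.15 CPM or less in all expansion organoids.

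Among the tissues, hair follicles and interfollicular epidermis were compared as the sources of the cultures. None of the 10 genes passed, where 2.81% of all genes did. MMP2 stood at 99.3 and 61.8 CPM in follicles against 35.5 and 15.6 CPM in epidermis, with no overlap and a log2 change of 1.45 ± 0.89 (SE). Summed fibroblast markers stood at 4412 to 7522 CPM against 1269 to 3580 CPM, and their part in the MMP2 difference was not tested. MMP14 stood at 11.9 and 7.41 CPM against 2.37 and 0 CPM (1 count), and TIMP1 at 137.7 and 103.7 CPM against 106.5 and 109.0 CPM. No overlap was found for 3 of the 10 genes, and for 49.5% of all genes. Whole skin, for which no comparison was made, had 127.1 and 129.9 CPM of TIMP1, 36.4 and 43.3 CPM of MMP1 and 110.5 and 53.2 CPM of MMP2. No gene of the 6 lists passed between follicles and epidermis, between later and early passage, or between the differentiation media.

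Over the 12 group means, TIMP1 and MMP1 were highest in the 4 groups labelled with the inhibitor. For MMP1 the lowest of these, later interfollicular organoids at 448.4 CPM, lay within the range of later follicle organoids without inhibitor (254.7 to 566.3 CPM). TIMP1 stood at 3303 CPM in early interfollicular organoids, 2748 CPM in later and 2525 CPM in early follicle organoids, and these 3 groups overlapped. Later interfollicular organoids followed with 1103 CPM, apart from the groups above and below. The other 8 groups averaged 218.8 CPM (full differentiation medium) down to 95.3 CPM (without Noggin and R-Spondin-1), and each overlapped the next in that order. MMP13 ran from 393.5 and 292.5 CPM in both reduced differentiation media to 2.91 CPM in follicles.

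The genes whose mean log2 CPM over the 12 groups was most like that of a given gene were taken from 8559 genes. For MMP1 these were the defensin CBD103 (Pearson r = 0.965, Spearman rho = 0.867), PDPN (0.953 and 0.937) and GLIPR1 (0.932 and 0.888). TIMP1 was closest to GLIPR1 (0.975 and 0.867), TPM4 (0.932 and 0.909) and MMP1 itself (0.916 and 0.797). MMP3 was closest to TMEFF2 (0.959 and 0.927), ETS1 (0.948 and 0.73) and CIDEB (0.935 and 0.72), and MMP13 to MFGE8 (0.967 and 0.979), CFL1 (0.924 and 0.944) and CBY1 (0.919 and 0.93).

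For the other genes the nearest were SSH3 for MMP2 (r = 0.932), IGDCC4 for MMP9 (0.929), PLXNA1 for MMP14 (0.962), RBM19 for MMP28 (0.929), TRAPPC2L for TIMP3 (0.867) and, over 9 groups, APBB1IP for MMP12 (0.902). Within the set MMP3 and TIMP1 had r = 0.836 and MMP9 and MMP13 r = 0.80, while among genes of the chromosomal cluster MMP1 had r = 0.775 with its neighbour MMP3 and r = 0.02 with MMP13. These coefficients describe group means that share libraries, depth and scaling, and they were picked as the highest of many.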

How the data were processed

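CEL-seq2 libraries were sequenced by the authors with paired-end reads and aligned with BWA 0.6.2-r126 to the dog build CanFam3.1, per the submitters' processing notes. No source used here names the gene annotation, the counting tool or the handling of molecular barcodes. The authors deposited estimated counts per gene, some with fractions, which were rounded to whole numbers; the 10 genes had whole counts only. Entries that name no gene (0.461 to 2.158% of a library's counts) were left out.

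The genes, lists and alternatives were chosen with earlier results of these data known. Gene identity rests on the symbols in the files, and no coordinates were used. Promoter and protein sequences were not analysed here.

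The 23 libraries were fitted together in edgeR 4.0.16 (R 4.3.3). The tool's default low-count filter left 9856 genes, or 9705 where differentiation libraries enter. Scaling used edgeR's TMM factors, and CPM use these scaled totals. The quasi-likelihood fit, with 1 mean per group for 12 groups, had 11 residual degrees of freedom and a common dispersion of 0.0984. Pooled groups were weighted equally. Genes were called at a Benjamini-Hochberg adjusted p under 0.05 over all genes tested. The SE is the log2 change divided by the square root of F. Single-library groups borrow the spread of the others, and p-values measure only the spread between libraries, which may be technical. Correlations used mean log2 CPM with a prior count of 2.

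The 6 lists hold other MMPs and TIMPs, the plasminogen system, ADAM and ADAMTS proteases, other matrix-degrading proteases, MMP activators and partners, and AP-1, ETS and RUNX regulators. In each list, the 3 called genes of lowest p that rose and the 3 that fell could be named, at 10 CPM or more on the higher side (MMP7, FURIN and FOSL1 always). The fit was tested on simulated counts. Alternatives were 2 other scalings, no low-count filter, DESeq2 1.42.0, the replicate number as a block, leaving out each library, and a wider expansion side for the differentiation media.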

Additional observations from a re-analysis of the deposited data

How the results depend on the processing

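Each comparison's count of called genes was recomputed under other settings. Without low-count filtering the inhibitor comparison called 641 genes (256 with it), later against early passage 172 (35), the inhibitor effect between passages 39 (0), follicles against epidermis 483 (277), removal of Noggin and R-Spondin-1 11 (0) and further removal of Forskolin 19 (0). DESeq2 called 1 gene for the inhibitor effect between passages. The differentiation media called 2370 genes against both later expansion groups, against 1418 without the inhibitor group. Leaving out each library in turn gave 1401 to 2956 genes for follicle organoids against follicles (2746 with all), 405 to 906 for interfollicular organoids against epidermis (1130), 109 to 303 for the inhibitor, 9 to 53 for passage, 74 to 884 for interfollicular against follicle organoids (641), 413 to 1668 for the differentiation media and 113 to 170 for follicles against epidermis. Another scaling moved the split of higher against lower calls in 5 comparisons: follicle organoids against follicles had 907 and 1839 with TMM and 596 and 2178 by library totals, interfollicular organoids against epidermis 701 and 429 with TMM and 389 and 1098 by totals, the inhibitor 180 and 76 with TMM and 134 and 116 by totals, follicles against epidermis 204 and 73 with TMM and 145 and 143 by totals, and the differentiation media 418 and 1000 with TMM and 539 and 826 by size factors. By totals the median log2 change of all genes was -0.18, -0.69, -0.13, -0.10 and -0.17 in this order, against 0.02, -0.10, -0.01, 0.22 and -0.16 with TMM. No gene of the set that was called changed sign under any alternative run. The cause of these shifts was not tested.

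The correlation of deviations showed no common pairing by replicate number over all groups: of 90 same-numbered pairs 12 were over 0.1 and 12 below -0.1 (-0.34 to 0.44). Between groups of 2 libraries, numbers 1 and 2 give the same correlation by construction, so these counts hold many duplicates. The 3 differentiation groups correlated by number at 0.338 to 0.441, a hint from the data only. With the replicate number as a block, 18 genes were called for passage, 199 for the inhibitor and 1143 for the differentiation media, where TIMP3 was no longer called (3.42). Depth limits MMP12, MMP9, MMP3 and TIMP3 in tissue, where a library holds a few counts or none.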
